A study of Mus musculus with 6 samples.

Results

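In macrophages grown from the marrow of mice that lack miR-155, 197 of 45037 probe sets shifted at least 2-fold and in the same direction under the M1 stimulus, LPS with IFN-γ, and the M2 stimulus, IL-4. A member is a probe set whose mean log2 change is 1 or more in size, with one sign, both in KO M1 over KO M0 and in KO M2 over KO M0. Of these members, 74 were higher than KO M0 (0.164% of all probe sets) and 123 were lower (0.273%). The higher members name 52 genes and the lower members 86, or 0.248% and 0.410% of the 20967 genes on the array, and no gene stood in both directions. 1 of the higher members carries several gene symbols, while 2 of the lower members carry several and 14 carry none, and none of these is named.

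The compared groups were KO M1, macrophages given 100 ng/ml LPS with 20 ng/ml IFN-γ, KO M2, macrophages given 20 ng/ml IL-4, and KO M0, macrophages left in medium alone. Cultures grown in L929 cell supernatant were stimulated on day 7, without that supernatant, and harvested after 24 hours. All cells carry the B6.Cg-Mir155tm1.1Rsky/J knockout on C57BL/6J, so the controls lack miR-155 as well. Every condition has 2 arrays, which the sample titles number KO1 and KO2 and call biological replicates. Mouse 1 and mouse 2 stand for these numbers, since the titles repeat them in each condition and the methods describe RNA of separate KO mice, although no source states that same-numbered arrays share a mouse. The study's methods also report that a KO sample was left out because its RNA quality was too low. The LPS dose is that of the sample labels, from which the study's methods differ, and wild-type macrophages were not analysed here.

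LPS, a component of bacterial walls, is sensed by Toll-like receptor 4 and feeds NF-kB and interferon signalling. IFN-γ and IL-4 bind different receptors, and both receptors hand their signal to Janus kinases, enzymes that phosphorylate STAT transcription factors. IFN-γ uses JAK1 with JAK2, while IL-4 acts mainly through STAT6.

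The microRNA that all these cells lack is printed for reference, since no value below compares cells with and without it. The mature strand lies at chr16:84714143-84714165 of GRCm38.p6 on the + strand (RefSeq), and the capitals mark its seed, bases 2 to 8.
miR-155-5p: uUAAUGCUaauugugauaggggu

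Values are RMA-normalized linear intensities, given in the order mouse 1 and mouse 2 within a condition, and changes are differences of mean log2 intensity with the limma SE over 6 arrays. Both changes share the KO M0 arrays, so an off value on a KO M0 array moves both in the same direction. The rule used these changes, so for members they and any limma call on them are a description from which nothing is read, whereas the rule set no threshold on the difference between KO M1 and KO M2. The array medians lay between 38.0 and 40.8, and the median log2 change over all probe sets was 0.03 in KO M1 and -0.02 in KO M2. The macrophage genes Csf1r, Lyz2, Cd68, Itgam, Mpeg1, Tyrobp and Emr1 read far above the array median on all 6 arrays, with Csf1r, the receptor for macrophage colony-stimulating factor, between 13940 and 15210. Control probe sets for the 3′ end of Gapdh exceeded those for its 5′ end by a log2 ratio of 0.089 and 0.153 in KO M1, 0.198 and 0.112 in KO M2, against -0.077 and -0.074 in KO M0. For Actb this ratio was 0.187 to 0.323 on the 4 stimulated arrays, against 0.15 and 0.164 in KO M0. It was thus higher on every stimulated array than on both KO M0 arrays, and its part in the shared changes was not tested. In these bulk cultures, a change in the share of a cell type and a change in RNA per cell cannot be told apart.

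**Figure D1:**
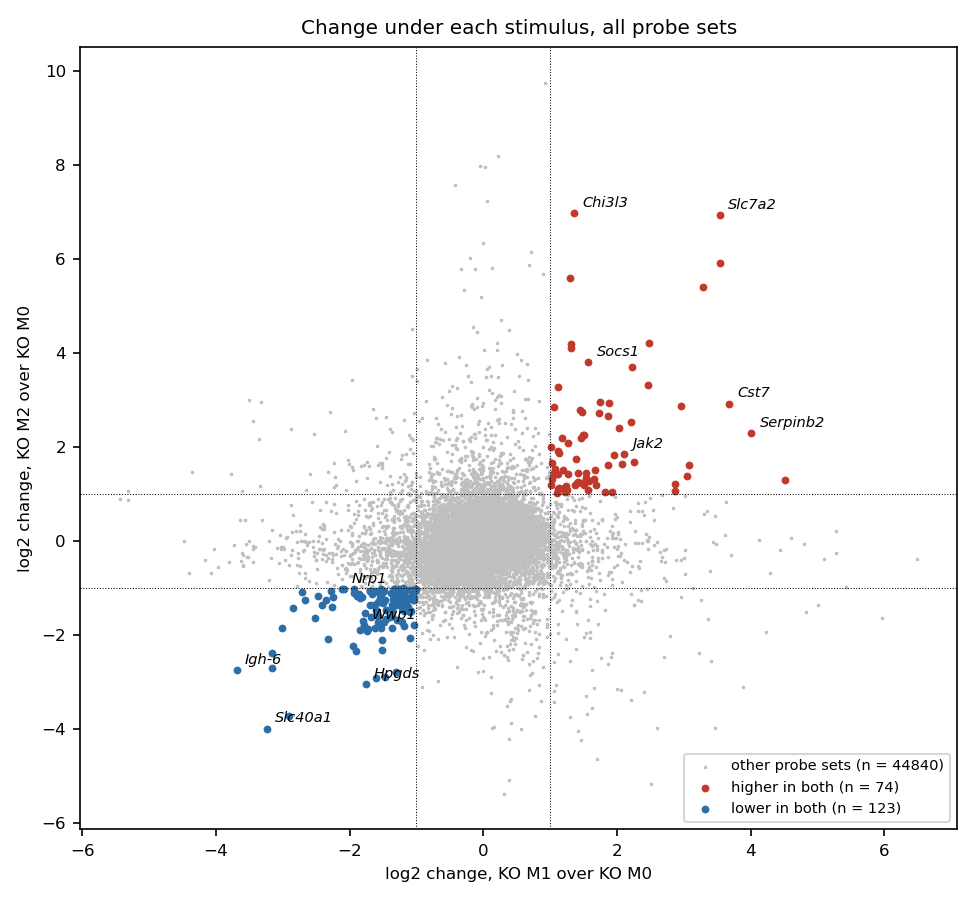
Mean log2 change of each of 45037 probe sets in KO M1 over KO M0 (x axis) and KO M2 over KO M0 (y axis), with the dotted lines at 1 and -1. Red points are the 74 members higher in both and blue points the 123 members lower in both, which fill the upper right and lower left corners by the rule.

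Most changes of this size belonged to 1 stimulus. Of 515 probe sets at least 2-fold higher in KO M1, 14.4% were also higher in KO M2, and of 714 in KO M2, 10.4% were also higher in KO M1. On the lower side the members made up 13.6% of 903 probe sets in KO M1 and 18.7% of 658 in KO M2. A further 161 probe sets moved at least 2-fold in opposite directions. The median change of the higher members was 1.49 in KO M1 and 1.64 in KO M2, and that of the lower members was -1.45 and -1.30. Many lay close to the threshold, and the smaller of the 2 changes was under 1.2 in 27 higher and 60 lower members. Among the higher members just inside the threshold, Mt2, a metallothionein, changed by 1.01 and 2.00, while just outside it Mthfd2, a mitochondrial folate enzyme, changed by 1.12 and 0.9994. On the lower side Cyp27a1, a sterol hydroxylase, lay inside at -1.2 and -1.001, and Mgst3, a glutathione transferase, outside at -1.76 and -0.9975.

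Jak2, the kinase that serves the IFN-γ receptor, was higher under both stimuli. Its first probe set read 1327 and 884 in KO M1, 896 and 899 in KO M2, against 248 and 255 in KO M0. All 4 stimulated arrays read 884 or more, more than 3-fold over both KO M0 arrays, and the highest was KO M1 of mouse 1. The log2 changes were 2.11 ± 0.18 for KO M1 and 1.84 ± 0.18 for KO M2. Its second probe set read 1528 and 1039 in KO M1, 1198 and 1105 in KO M2, against 325 and 322 in KO M0, with changes of 1.96 ± 0.18 for KO M1 and 1.83 ± 0.18 for KO M2. KO M1 and KO M2 differed by 0.27 ± 0.18 (SE, limma adjusted p = 0.41) in the first and by 0.13 ± 0.18 (SE, limma adjusted p = 0.71) in the second, and neither difference passed the test. Without KO M1 of mouse 2, the difference in the first came to 0.56 (limma, adjusted p = 0.036), higher in KO M1.

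The other kinases and STAT factors did not meet the rule. Of 11 measured genes of that list, Jak2 was the only member. In counts of calls over a list, the probe set of highest mean intensity stood for each gene and a call is a limma adjusted p under 0.05, whereas a gene is a member if any of its probe sets is. In KO M1 over KO M0, limma called Jak2, Jak3 and Stat3 higher, 3 of 11 (3.79% of all genes were), and 0 lower (4.49%). In KO M2 over KO M0, it called Jak2 and Stat5a higher, 2 of 11 (4.50%), and 2 of 11 lower (3.06%). At an unadjusted p under 0.05, limma gave 7 higher and 0 lower for KO M1, against 2 higher and 2 lower for KO M2. The share of all genes at that unadjusted threshold was not counted, here or for the B cell markers below. The log2 changes in KO M1 and KO M2 were 0.32 and 0.27 for Jak1, which serves both receptors, and 0.47 and 0.04 for Tyk2, a kinase of the type I interferon receptor. The calls of Jak2 follow from its choice.

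Among 18 inhibitors of this pathway, Socs1, a feedback inhibitor of JAK2 and JAK1, was the only member. It read 261 and 86.2 in KO M1, 763 and 656 in KO M2, against 50.6 and 50.3 in KO M0. Both KO M2 arrays were more than 10-fold above KO M0, whereas the KO M1 array of mouse 2 exceeded KO M0 by less than 2-fold. KO M1 stood below KO M2, with a log2 difference of -2.24 ± 0.41 (SE, limma adjusted p = 0.0076), which was -1.44 without the mouse 2 KO M1 array, -3.04 without the mouse 1 KO M1 array and missed the threshold without the mouse 1 KO M2 array (limma, adjusted p = 0.058). The second Socs1 probe set had log2 changes of 0.15 in KO M1 and 0.71 in KO M2 and was no member. None of the other SOCS genes was a member. The log2 changes in KO M1 and KO M2 were 4.12 and 0.03 for Socs3, -0.01 and 6.34 for Socs2, 0.20 and 4.21 for Cish, and -0.96 and 0.95 for Socs6.

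The members most like Jak2 over the 6 arrays, by Pearson correlation of log2 intensity among members that could be named, were Plekhg1 (r = 0.98), Fcgr2b (0.976), Cst7 (0.976), Rasgrp1 (0.975) and Nfkbie (0.964). The 6 arrays fall into 3 conditions and the members were chosen for one direction, so a high correlation is set in part by that choice. Fcgr2b, the inhibitory receptor for immunoglobulin G, read 5077 and 4530 in KO M1, 5097 and 4013 in KO M2, against 2151 and 2000 in KO M0 at the probe set most like Jak2. The stimulated arrays lay about 2-fold above KO M0 with little spread, and 4 of its 5 probe sets were members. Plekhg1 read 327 and 247 in KO M1, 290.2 and 291 in KO M2, against 93.0 and 121 in KO M0. Nfkbie, which encodes the inhibitor IκBε of NF-kB, read 749.7 and 471 in KO M1, 358 and 499.8 in KO M2, against 172 and 199 in KO M0.

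The 12 genes with the largest shared rise hold a transporter, protease inhibitors, a coagulation factor, a chemokine and signalling proteins. Slc7a2, a transporter that brings arginine into the cell, led the list by its smaller change. It read 317 and 223 in KO M1, 2949 and 2639 in KO M2, against 20.0 and 26.2 in KO M0. KO M1 was more than 8-fold and KO M2 more than 100-fold above KO M0, and the groups did not overlap. The difference of KO M1 from KO M2 was -3.39 ± 0.20 (SE, limma adjusted p = 1.9e-05), and all 4 of its probe sets were members. Cst7, the cysteine protease inhibitor cystatin F, read 2719 and 2863 in KO M1, 1445 and 1882 in KO M2, against 196 and 241 in KO M0. It was higher in KO M1 than in KO M2 by 0.76 ± 0.16 (SE, limma adjusted p = 0.017), a call lost without the mouse 1 KO M2 array (difference 0.57, limma, adjusted p = 0.11) or the mouse 2 KO M1 array (limma, adjusted p = 0.055). Rasgrp1, an activator of RAS best known from T cells, read 279 and 160.4 in KO M1, 279.9 and 144 in KO M2, against 24.6 and 30.6 in KO M0. Within each mouse its stimuli were nearly level, but mouse 1 stood above mouse 2 under both, and the stimuli differed by 0.07 ± 0.33 (SE, limma adjusted p = 0.92). Of 4 Rasgrp1 probe sets 1 was a member, and the others had changes of 0.46 to 0.96 in KO M1 and 0.39 to 0.61 in KO M2.

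Ccl8, a chemokine that draws monocytes and T cells, read 1081 and 1035 in KO M1, 4740 and 2610 in KO M2, against 200 and 179.8 in KO M0. F10, which encodes coagulation factor X, read 566 and 771 in KO M1, 1425 and 988 in KO M2, against 132 and 109 in KO M0. KO M2 exceeded KO M1 in both, with a KO M1 over KO M2 log2 difference in Ccl8 of -1.73 ± 0.24 (SE, limma adjusted p = 0.0019) and in F10 of -0.84 ± 0.21 (SE, limma adjusted p = 0.034). The F10 call was lost with mouse as a block (limma, adjusted p = 0.058) and when any single array was left out, other than the KO M1 and KO M2 arrays of mouse 2. H2-Ab1, a chain of the MHC class II molecule that presents peptides to CD4+ T cells, read 928 and 911 in KO M1, 2138 and 1733 in KO M2, against 325 and 192 in KO M0. The difference between the stimuli of -1.07 ± 0.23 (SE, limma adjusted p = 0.016) was lower in KO M1 and lost its call without the mouse 1 KO M2 array (limma, adjusted p = 0.11) or that of mouse 2 (limma, adjusted p = 0.051). Ier3, an immediate early gene linked to cell survival, read 1860 and 2387 in KO M1, 3693 and 3665 in KO M2, against 532 and 637 in KO M0. All 4 stimulated arrays were over 2-fold above KO M0 and KO M2 exceeded KO M1, at -0.80 ± 0.16 (SE, limma adjusted p = 0.011), which also lost its call without the mouse 1 KO M2 array (limma, adjusted p = 0.061) or that of mouse 2 (limma, adjusted p = 0.067).

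Serpinb2, plasminogen activator inhibitor 2, read 111 and 226 in KO M1, 35.8 and 66.3 in KO M2, against 6.67 and 14.6 in KO M0. The KO M1 arrays were highest, and mouse 2 read about 2-fold above mouse 1 in every condition. The difference between the stimuli was 1.70 ± 0.44 (SE, limma adjusted p = 0.038), a call lost without the mouse 2 KO M1 array or without either KO M2 array. Upp1, a uridine phosphorylase, read 161 and 91.3 in KO M1, 139 and 165 in KO M2, against 33.3 and 20.7 in KO M0, and Pde4b, a phosphodiesterase that breaks down cyclic AMP, read 647 and 699 in KO M1, 548 and 373 in KO M2, against 141 and 140.4 in KO M0. Neither differed between the stimuli by the test, with -0.32 ± 0.29 (SE, limma adjusted p = 0.54) for Upp1 and 0.57 ± 0.18 (SE, limma adjusted p = 0.076) for Pde4b, though Pde4b passed it without the mouse 1 KO M2 array (difference 0.85, limma, adjusted p = 0.016). Of 6 Pde4b probe sets 2 were members, and the others had changes of -0.22 to 1.85 in KO M1 and -0.20 to 0.26 in KO M2. Serpina3g, a serine protease inhibitor known as an interferon-responsive gene, read 1690 and 162 in KO M1, 694 and 668 in KO M2, against 109.7 and 150.2 in KO M0. Its KO M1 mean rested on mouse 1, since the KO M1 array of mouse 2 lay within 10% of the KO M0 array of that mouse. The KO M1 change over KO M0 was 3.72 without the mouse 2 KO M1 array and 0.33 without the mouse 1 KO M1 array, and the difference between the stimuli was -0.38 ± 0.84 (SE, limma adjusted p = 0.82) with all arrays, 1.31 without the mouse 2 KO M1 array and -2.08 without the mouse 1 KO M1 array.

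**Figure D2:**
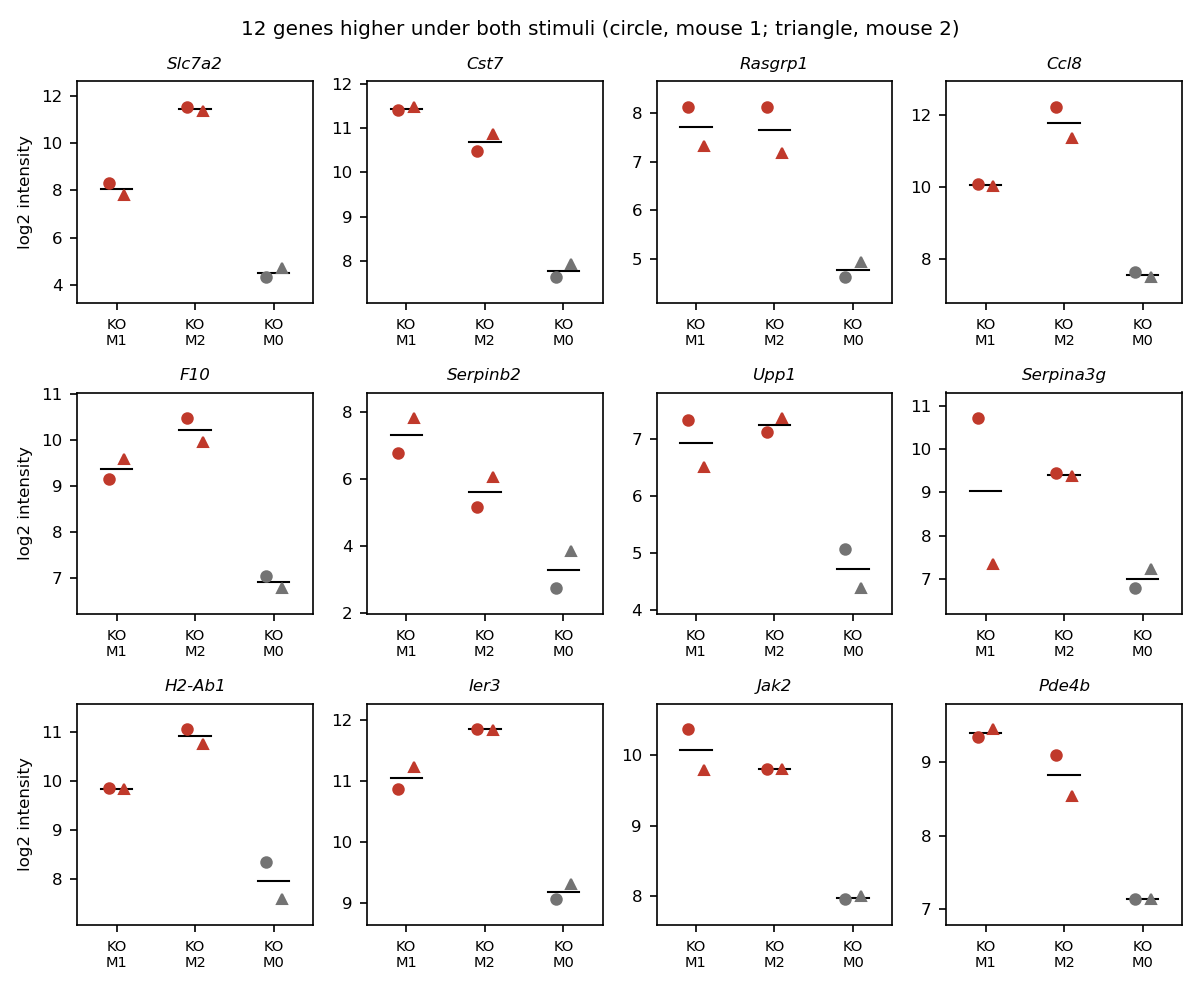
Log2 intensity on each array (y axis, a separate scale per gene) of the 12 genes with the largest smaller change among the higher members, by condition (x axis), with circles for mouse 1, triangles for mouse 2 and bars for the mean. The stimulated arrays lie above both KO M0 arrays for all 12, by the least for Serpina3g, at 161.5 in KO M1 of mouse 2 against 150.2 in KO M0 of that mouse.

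Beyond these, the lists of macrophage functions each held few members in number. For comparison, 0.248% of all genes had a higher member and 0.410% a lower one. Of 36 genes known to respond to IL-4, 3 were members, namely Slc7a2, the chitinase-like protein Chi3l3 and the eosinophil chemokine Ccl24. Chi3l3 read 115 and 45.5 in KO M1, 4589 and 2764 in KO M2, against 28.1 and 28.4 in KO M0, and Ccl24 read 178 and 168 in KO M1, 3947 and 2952 in KO M2, against 71.9 and 69.7 in KO M0. The rise in KO M1 was a small part of that in KO M2, and the stimuli differed by -5.62 ± 0.39 (SE, limma adjusted p = 4.4e-05) for Chi3l3 and -4.31 ± 0.15 (SE, limma adjusted p = 1.9e-06) for Ccl24. Without KO M1 of mouse 1 the Chi3l3 change in KO M1 was 0.69, under the threshold, and the difference between the stimuli was -6.29, against -4.95 without the mouse 2 KO M1 array. Of 25 genes of amino acid transport and arginine use, Slc7a2, Arg2 and Trib3 were members. Arg2, the mitochondrial arginase, read 99.5 and 277 in KO M1, 59.0 and 47.6 in KO M2, against 19.1 and 27.1 in KO M0. KO M1 lay above KO M2 at 1.65 ± 0.40 (SE, limma adjusted p = 0.03), and the difference was 0.91 without the mouse 2 KO M1 array, 2.39 without the mouse 1 KO M1 array and not called without either KO M2 array or either KO M0 array. Its KO M1 change over KO M0 ranged between 2.13 and 3.61 with 1 KO M1 array left out. A second, dimmer Arg2 probe set had changes of 2.31 in KO M1 and 0.63 in KO M2 and was no member. Trib3, a pseudokinase of the amino acid stress response, read 619.6 and 558 in KO M1, 777 and 1227 in KO M2, against 130.2 and 350.0 in KO M0, and its KO M0 arrays were more than 2-fold apart, so its KO M1 change was 0.75 without the mouse 1 KO M0 array and 2.18 without that of mouse 2, and its KO M2 change was 1.48 and 2.91 in the same order.

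Of 18 genes of MHC class II presentation and costimulation, H2-Ab1 and Cd40 were members. Cd40, the receptor through which T cells license macrophages, read 331 and 103 in KO M1, 129 and 193 in KO M2, against 65.9 and 67.5 in KO M0. Its KO M1 arrays were more than 3-fold apart, the KO M1 change was 2.31 without the mouse 2 KO M1 array and 0.63 without the mouse 1 KO M1 array, and the difference between the stimuli was 0.23 ± 0.45 (SE, limma adjusted p = 0.8), which came to 1.07 (limma, adjusted p = 0.016) without the mouse 2 KO M1 array. Of 39 inflammatory cytokines and chemokines, Ccl8 and Il6 were higher members and Cxcl14 a lower one. Il6, a cytokine of the acute phase response, read 59.0 and 24.4 in KO M1, 16.3 and 62.4 in KO M2, against 9.42 and 11.6 in KO M0, with wide spread within each stimulus. The adhesion molecule Vcam1, which read 49.9 and 14.6 in KO M1, 27.1 and 23.6 in KO M2, against 8.50 and 10.2 in KO M0, was the higher member of 26 adhesion genes. The member probe sets of Il6 and Vcam1 were not above the array median on both arrays of any condition, and the other 3 Vcam1 probe sets, 1 of them brighter, had changes of 0.31 to 0.92 in KO M1 and 0.05 to 0.16 in KO M2. Tgfbi, an extracellular protein induced by TGF-β, read 7249 and 10570 in KO M1, 2464 and 2559 in KO M2, against 871 and 1646 in KO M0, well above KO M0 in KO M1 and less so in KO M2. It differed between the stimuli by 1.80 ± 0.28 (SE, limma adjusted p = 0.0036). Slc2a1, the glucose transporter GLUT1, read 508 and 1065 in KO M1, 1085 and 748 in KO M2, against 376 and 345 in KO M0, and it was the only member of 22 genes of glycolysis, by 1 of 3 probe sets, with the others at 0.98 in KO M1 and 1.41 to 1.46 in KO M2. None of 42 interferon-stimulated genes, 44 DNA replication genes, 28 cholesterol genes, 21 Toll-like receptor genes or 21 cytokine receptor subunits was a member. So few of all genes had a member (0.248% higher, 0.410% lower) that nothing is read from these absences.

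Some other higher members are named here after their values were seen. Nfil3, a basic leucine zipper factor, read 368 and 934 in KO M1, 1677 and 1297 in KO M2, against 186 and 247 in KO M0. Cebpd, a C/EBP factor of inflammatory responses, read 1172 and 715 in KO M1, 1090 and 951 in KO M2, against 306 and 473 in KO M0, and Jdp2, a partner of AP-1 proteins, read 576 and 628 in KO M1, 482 and 496 in KO M2, against 176 and 229 in KO M0. All 3 were higher on each stimulated array than on both KO M0 arrays. A second, dimmer Cebpd probe set had changes of 0.22 in KO M1 and 0.36 in KO M2 and was no member. Klf7, a Krüppel-like factor, was a member at all 4 of its probe sets, with changes of 1.22 to 1.53 in KO M1 and 1.05 to 1.34 in KO M2. Malt1, the protease of the CARD-BCL10-MALT1 complex that activates NF-kB, read 387 and 198 in KO M1, 405 and 444 in KO M2, against 132 and 138 in KO M0. Of 3 Malt1 probe sets 1 was a member, and the others had changes of 0.71 to 0.73 in KO M1 and 0.19 to 0.34 in KO M2. Scd2, a fatty acid desaturase, read 3074 and 3979 in KO M1, 3122 and 3094 in KO M2, against 785 and 1533 in KO M0, with a KO M0 array of mouse 2 nearly 2-fold above that of mouse 1.

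By its smaller change, the largest fall among named genes was that of Slc40a1, which encodes ferroportin, the exporter of iron from macrophages. It read 303 and 161 in KO M1, 138 and 125 in KO M2, against 2398 and 1805 in KO M0. Every stimulated array was at least 5-fold below both KO M0 arrays, and the log2 changes were -3.24 ± 0.27 for KO M1 and -3.99 ± 0.27 for KO M2. KO M1 and KO M2 differed by 0.75 ± 0.27 (SE, limma adjusted p = 0.12), which passed the test with mouse as a block (limma, adjusted p = 0.049) and without the mouse 2 KO M1 array (difference 1.2, limma, adjusted p = 0.0039). Both Slc40a1 probe sets were members, and the other 18 measured genes of iron and heme handling were not. Igh-6, the immunoglobulin heavy chain of IgM, read 34.0 and 27.5 in KO M1, 62.6 and 55.8 in KO M2, against 421 and 369 in KO M0. KO M1 lay below KO M2, at -0.95 ± 0.15 (SE, limma adjusted p = 0.0037). Of its 10 probe sets 2 were members, while the other 8 changed by -0.20 to 0.33 in KO M1 and -0.14 to 0.05 in KO M2. The summed intensity of 10 B cell markers was 4510 to 5327 in KO M1 and 6109 to 6141 in KO M2, against 5427 to 5448 in KO M0. Cd79a, Ms4a1, Pax5 and Ebf1 were not above the array median, so the sum rests mainly on the other markers. Of the 10, limma called 0 against KO M0 (1 in each condition, higher, at an unadjusted p under 0.05). The part of B cells in the Igh-6 change was not tested.

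Mamdc2, a secreted matrix protein, read 15.6 and 13.7 in KO M1, 21.7 and 18.4 in KO M2, against 144 and 118 in KO M0, and Pcp4l1, a relative of the calmodulin-binding protein PCP4, read 27.1 and 47.3 in KO M1, 58.9 and 64.7 in KO M2, against 315 and 326 in KO M0. KO M0 alone was above 100 in both. Cd5l, a secreted scavenger protein of tissue macrophages also called AIM, read 358 and 1623 in KO M1, 479 and 814 in KO M2, against 2401 and 3615 in KO M0. Its KO M1 arrays differed by more than 4-fold, and the KO M1 change was -3.04 without the mouse 2 KO M1 array and -0.86 without the mouse 1 KO M1 array. The difference between the stimuli was 0.29 ± 0.59 (SE, limma adjusted p = 0.81), and it came to 1.38 (limma, adjusted p = 0.03) without the mouse 1 KO M1 array and to -0.80 without the mouse 2 KO M1 array. Hpgds, the hematopoietic prostaglandin D synthase, read 356 and 306 in KO M1, 113 and 160.4 in KO M2, against 1200 and 1038 in KO M0. It was higher in KO M1 than in KO M2 by 1.29 ± 0.18 (SE, limma adjusted p = 0.002). Gas6, a ligand of the TAM receptors that take part in clearing dead cells, read 562 and 702 in KO M1, 1356 and 922 in KO M2, against 2734 and 2137 in KO M0, lower in KO M1 than in KO M2 at -0.83 ± 0.21 (SE, limma adjusted p = 0.035). That call was lost without the mouse 1 KO M1 array, KO M2 of mouse 1 or either KO M0 array, with limma adjusted p = 0.13, 0.18 and 0.053.

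Some falls were similar in size under both stimuli. Wwp1, a HECT-type ubiquitin ligase, read 458 and 476 in KO M1, 525 and 411 in KO M2, against 1645 and 1576 in KO M0, with a difference between the stimuli of 0.01 ± 0.14 (SE, limma adjusted p = 0.99). Igfbp4, which binds insulin-like growth factors, read 563 and 459 in KO M1, 538 and 389.7 in KO M2, against 1702 and 1636 in KO M0, with a difference of 0.15 ± 0.18 (SE, limma adjusted p = 0.65). All 3 Wwp1 and all 6 Igfbp4 probe sets were members, with Igfbp4 changes between -1.72 and -1.25 in KO M1 and between -1.87 and -1.28 in KO M2. Fam82b, a microtubule-associated protein, read 68.1 and 83.8 in KO M1, 77.5 and 69.5 in KO M2, against 292 and 255 in KO M0, and Cxcl14, a chemokine, read 56.5 and 78.1 in KO M1, 67.3 and 63.1 in KO M2, against 166 and 151 in KO M0. At the probe sets given for these 4 genes, the 4 stimulated arrays lay close together and below both KO M0 arrays. Of 6 Fam82b probe sets 2 were members, and the other 4, 1 of them brighter, had changes of -0.43 to -0.06 in KO M1 and -0.46 to 0.14 in KO M2. Of 2 Cxcl14 probe sets 1 was a member, and the other had changes of -0.31 and -0.47. A p that misses the threshold does not show that the stimuli act alike. Sesn1, a p53 target of the sestrin family, was a member at 3 of 4 probe sets, of which the first read 347 and 264 in KO M1, 270.1 and 261 in KO M2, against 779.6 and 888 in KO M0.

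Atp8b4, a P4-type ATPase, read 41.9 and 56.0 in KO M1, 39.6 and 68.2 in KO M2, against 163 and 174 in KO M0, while a brighter probe set of it had changes of -1.41 and -0.75. Reps2, an endocytic adaptor, read 46.8 and 73.6 in KO M1, 111 and 106 in KO M2, against 352 and 322 in KO M0. The uncharacterised transcript 8430436C05Rik read 20.8 and 18.3 in KO M1, 13.1 and 15.8 in KO M2, against 71.5 and 74.2 in KO M0. Reps2 was lower in KO M1 than in KO M2, with a difference of -0.89 ± 0.20 (SE, limma adjusted p = 0.02), a call lost without the mouse 1 KO M2 array (limma, adjusted p = 0.1) or that of mouse 2 (limma, adjusted p = 0.096).

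**Figure D3:**
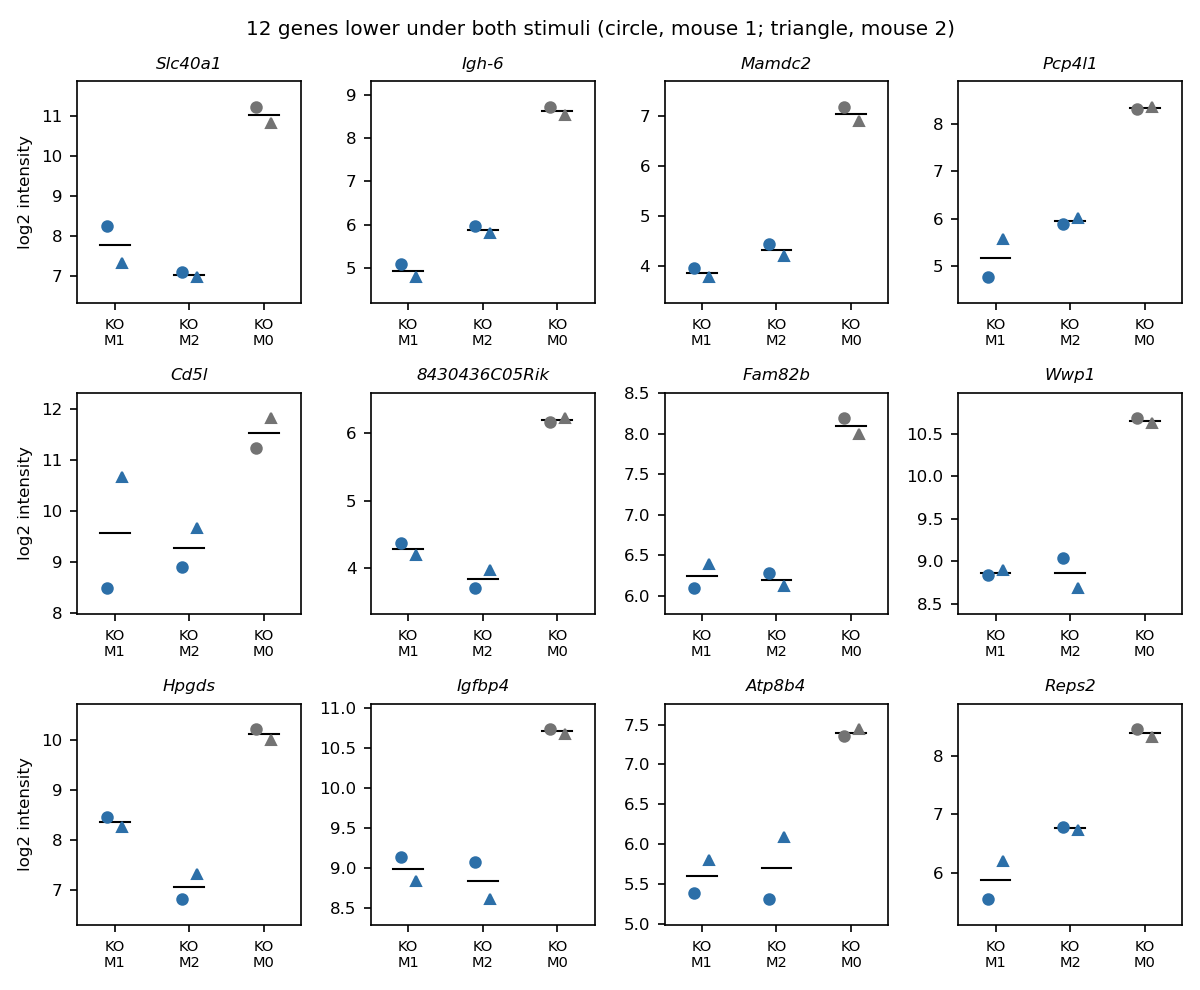
Log2 intensity on each array (y axis, a separate scale per gene) of the 12 genes with the largest smaller change among the lower members, by condition (x axis), with circles for mouse 1, triangles for mouse 2 and bars for the mean. Every stimulated array lies below both KO M0 arrays, and the KO M1 arrays of Cd5l, at 358 and 1623, are the farthest apart.

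Lower members of further lists were few (0.410% of all genes had one), and each one named here had a brighter probe set that was no member. Nrp1, a co-receptor for semaphorins and VEGF, read 133 and 117 in KO M1, 250.1 and 269 in KO M2, against 535 and 528 in KO M0. It was lower in KO M1 than in KO M2, at -1.06 ± 0.13 (SE, limma adjusted p = 0.00079). Tgfbr1, the type I TGF-β receptor, read 85.5 and 65.3 in KO M1, 34.4 and 69.5 in KO M2, against 159 and 181 in KO M0, and Maf, a transcription factor of tissue macrophages, read 1025 and 807 in KO M1, 710.1 and 409.7 in KO M2, against 1960 and 1764 in KO M0. The stimuli differed by 0.61 ± 0.29 (SE, limma adjusted p = 0.23) in Tgfbr1 and 0.75 ± 0.24 (SE, limma adjusted p = 0.083) in Maf, and Maf passed the test with mouse as a block (limma, adjusted p = 0.035). The difference was 1.12 in Tgfbr1 without the mouse 2 KO M2 array and 1.15 in Maf without the mouse 1 KO M2 array. Without the mouse 2 KO M1 array the Maf change in KO M1 was -0.86, under the threshold. Of 33 genes of the growth factor and TGF-β list, Tgfbi was a higher member and Tgfbr1 and Nrp1 lower ones, and Maf was the only member of 17 macrophage identity genes. Alcam, an adhesion molecule of the immunoglobulin family, read 24.3 and 37.5 in KO M1, 35.3 and 36.3 in KO M2, against 119.5 and 89.1 in KO M0 at 1 of 5 probe sets, while the other 4 had changes of -2.32 to -1.05 in KO M1 and -0.50 to -0.28 in KO M2. Ctsb, the lysosomal protease cathepsin B, read 160.4 and 173 in KO M1, 198 and 208 in KO M2, against 619.8 and 437 in KO M0, and it was the only member of 34 lysosomal genes. Cenpe, a kinesin of the kinetochore, was the only member of 54 mitosis genes and read 6.68 and 8.08 in KO M1, 7.24 and 17.4 in KO M2, against 28.2 and 19.8 in KO M0, below the median of every array. The brighter Cenpe probe set had changes of -2.19 and -0.58 and was no member.

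Some other lower members are also named after their values were seen. Rgs18, a regulator of G protein signalling, read 72.8 and 89.7 in KO M1, 186 and 247 in KO M2, against 516 and 648 in KO M0. Dab2, an endocytic adaptor, read 184 and 237 in KO M1, 409 and 648 in KO M2, against 987 and 1362 in KO M0. In both, the KO M2 arrays stood between KO M1 and KO M0, and KO M1 was lower than KO M2, with a difference of -1.41 ± 0.19 (SE, limma adjusted p = 0.0015) in Rgs18 and -1.30 ± 0.24 (SE, limma adjusted p = 0.0088) in Dab2. The other 3 Dab2 probe sets, 1 of them nearly 10-fold brighter on average, had changes of -2.19 to -1.41 in KO M1 and -0.47 to -0.15 in KO M2. Cd180, a Toll-like receptor homologue, read 699 and 510.4 in KO M1, 469 and 547 in KO M2, against 1500 and 1578 in KO M0. The pro-apoptotic BH3 genes Bcl2l11, which read 84.7 and 108 in KO M1, 93.2 and 132 in KO M2, against 201 and 259 in KO M0, and Pmaip1, which read 85.9 and 47.7 in KO M1, 52.0 and 64.1 in KO M2, against 175 and 206 in KO M0, were lower on all 4 stimulated arrays than on both KO M0 arrays. For Bcl2l11 this was 1 of 5 probe sets, and the other 4 had changes of -0.72 to -0.54 in KO M1 and -0.30 to -0.15 in KO M2. The brightest of those 4 had a geometric mean intensity of 1590, against 134 for the member.

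Probe sets of one gene did not always move together, which bears on the single-probe-set members. Of the 52 higher genes, 35 had several probe sets, and in 8 of them all were members, while in 22 only 1 was. Of the 86 lower genes, 68 had several, all of them members in 5 and only 1 a member in 55. F10, H2-Ab1 and Slc7a2 were members throughout on the higher side. For Ctsb, 1 of 5 probe sets was a member, and the other 4 had changes of -1.83 to -0.13 in KO M1 and -0.29 to 0.01 in KO M2. For Nrp1, 1 of 4 was a member and the other 3 had changes of -1.99 to -1.79 in KO M1 and -0.32 to -0.13 in KO M2. Malat1, a nuclear RNA with 1 member of 7 probe sets, had others of -0.74 to -0.02 in KO M1 and -1.18 to -0.52 in KO M2. The other probe sets of Maf had changes of -0.89 to -0.31 in KO M1 and -2.08 to -1.44 in KO M2, and those of Tgfbr1 -0.81 to -0.16 and -1.17 to -0.55. Those of Tgfbi had changes of 2.31 to 3.01 in KO M1 and 0.80 to 0.95 in KO M2. For Gas6, 1 of 2 was a member, and the other, which was dimmer, had changes of -0.25 in KO M1 and -0.21 in KO M2.

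The 2 mice, meaning the 2 numbered sets of arrays, were compared by applying the rule in one and reading the other. The data do not bear out the pairing by number for KO M1, as described with the processing. Of 92 probe sets higher under both stimuli in mouse 1, 39 (42.4%) met the rule in mouse 2, where 0.167% of all probe sets met it. Of 173 lower ones in mouse 1, 65 (37.6%) met it in mouse 2, against 0.251% of all. Chosen in mouse 2 and read in mouse 1, 39 of 75 higher (52.0%, against 0.204% of all) and 65 of 113 lower probe sets (57.5%, against 0.384%) met it. The 39 higher and 65 lower probe sets that met the rule in both mice are all members, which follows from averaging the mice. In each reading the median change in the mouse not used for choosing was over 1 in size, between 1.18 and 1.87 on the higher side and between -1.47 and -1.01 on the lower side, whereas the medians of all probe sets lay between -0.02 and 0.05. With the KO M1 numbers exchanged, a reading added after seeing the data, 40 of 101 higher and 68 of 203 lower probe sets met the rule again from the first set to the second, and 40 of 71 and 68 of 108 from the second to the first. These counts have no test, since there are 2 numbered sets of arrays and both stimuli share a KO M0 array within each.

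The KO M1 arrays were less alike than the others. They stood at least 2-fold apart in 17 of 74 higher members, against 4 for the KO M2 arrays and 3 for the KO M0 arrays, and in 8, 7 and 6 of 123 lower members. Over all probe sets these shares were 0.961%, 0.266% and 0.109%. The rule averages both mice, so 35 of the 74 higher members changed by less than 2-fold in at least 1 of 4 within-mouse comparisons, as Serpina3g, Socs1, Cd40, Trib3 and Chi3l3 did. All 74 higher members had all 4 within-mouse changes of the member's sign and stimulated arrays above both KO M0 arrays, an ordering found in 10.3% of all probe sets. Of the lower members, 122 had the same sign in all 4 changes and 120 did not overlap with KO M0, against 10.0% of all probe sets with the 4 stimulated arrays below. The exception in sign was Folr2, a folate receptor of macrophages, which read 421 and 1827 in KO M1, 802 and 632 in KO M2, against 2159 and 1764 in KO M0, where the KO M1 array of mouse 2 was above KO M0 of that mouse. The rule chose these members for their distance from KO M0, and nothing is read from their ordering.

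**Figure D4:**
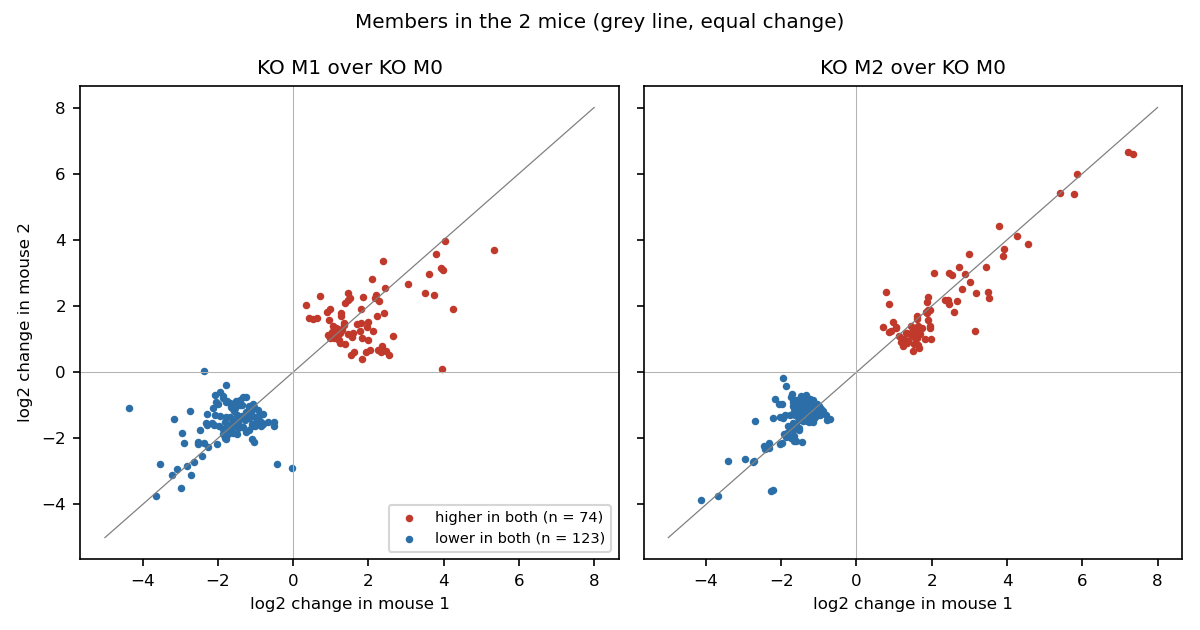
Log2 change of each of the 197 members in mouse 1 (x axis) and mouse 2 (y axis), for KO M1 over KO M0 (left) and KO M2 over KO M0 (right), with the grey line at equal change. Points lie farther from the line for KO M1, whose arrays were at least 2-fold apart in 17 of 74 higher members, than for KO M2, with 4.

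As a description of the chosen members, 57 of the 74 higher members were called higher in KO M1 over KO M0 at a limma adjusted p under 0.05 (2.76% of all probe sets were), 60 in KO M2 (3.61%), and 50 in both. Of the 123 lower members, 109 were called lower in KO M1 (4.32% of all), 110 in KO M2 (3.57%), and 106 in both. The rule used these contrasts, so the counts are fixed in large part by the choice and nothing is read from them. Together 156 members were called in both, and 96 without the mouse 1 KO M0 array. By the t-test of the study's methods on linear intensities, 0 members were called in both after Benjamini-Hochberg adjustment, and 106 had an unadjusted p under 0.05 in both. The share of all probe sets called in both was not counted, for limma or for the t-test.

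The difference between KO M1 and KO M2, on which the rule set no threshold, was tested over all 45037 probe sets. In limma 11 members were higher in KO M1 than in KO M2 (5.31% of all probe sets were) and 41 were lower (7.63%), so 52 of 197 members differed between the stimuli. A member is by construction at least 2-fold from KO M0, so this share is not that of an unselected gene. The higher members gave 6 calls higher in KO M1 and 23 lower, and the lower members gave 5 and 18. The 41 became 27 without the mouse 1 KO M2 array and 26 without the mouse 2 KO M2 array, and the 11 became 19 without the mouse 2 KO M1 array. Among the higher members alone, the counts were 10 higher without the mouse 2 KO M1 array, 3 higher without the mouse 2 KO M2 array and 13 lower without that of mouse 1. Among the lower members alone they were 9 higher without the mouse 2 KO M1 array and 10 lower without the mouse 2 KO M2 array. The median size of the difference was 0.59 in the higher members and 0.26 in the lower members, against 0.18 over all probe sets. The stimuli lay within 0.5 of each other in 36 of 74 higher and 85 of 123 lower members, and in 85.5% of all probe sets.

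**Figure D5:**
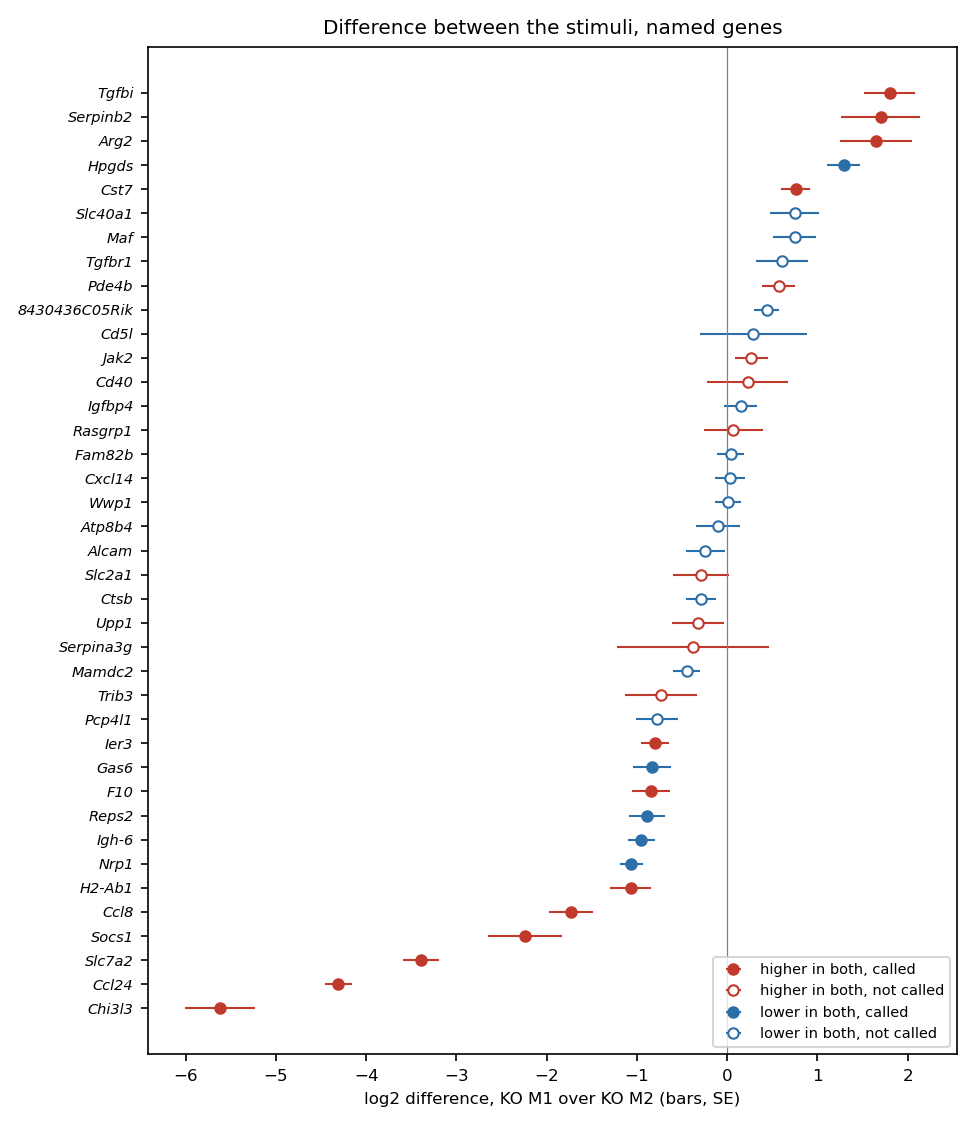
Log2 difference of KO M1 over KO M2 (x axis) with its limma SE for the 39 named genes (y axis), red for genes higher and blue for genes lower under both stimuli, filled where limma called the difference at an adjusted p under 0.05. The IL-4 response genes Chi3l3 (-5.62), Ccl24 (-4.31) and Slc7a2 (-3.39) stand farthest to the left, and Tgfbi (1.80), Serpinb2 (1.70) and Arg2 (1.65) farthest to the right.

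Promoter sequence was examined as a description. RefSeq promoters of GRCm38.p6, from 250 bases before to 50 after the start, were in the table for 37 of the higher genes (50 promoters) and 60 of the lower genes (78 promoters). The gamma-activated site TTCNNNGAA, which STAT dimers bind, was matched in 6 of 50 promoters of higher genes (12%) and 2 of 78 of lower genes (2.56%), against 8.3% of all 32851 promoters. The AP-1 motif TGANTCA was matched in 20% and 12.8%, against 7.81%, among them the promoters of Cst7, Il6, Nfkbie, Serpinb2 and Upp1. The CCAAT box was matched in 44% and 46.2%, against 37.4%, the cell cycle homology region TTTGAA in 14% and 12.8%, against 17.9%, and the cyclic AMP element TGACGTCA in 0 and 2.56%, against 1.79%. A STAT6 type motif was matched in 0 promoters of higher genes and 2.56% of lower genes, against 6.95%. Motifs were searched on both strands, they can overlap, some genes have several overlapping promoter windows, and a match is not a bound site. The 6 higher promoters with a gamma-activated site belong to Serpinb2 (2 promoters), Rasgrp1, Pde4b, Serpina3g and Chi3l3. Those of Rasgrp1, Pde4b and Serpina3g are printed here with the site in capitals, and Jak2, in whose window these letters were not found, follows. A link between a site and a rise was not tested. Rasgrp1 lies at chr2:117342828-117343127, - strand, with the first base of the site at -120 from the start, the Pde4b promoter with a match at chr4:102569810-102570109, + strand, at -150, Serpina3g at chr12:104235897-104236196, + strand, at -33, and Jak2 at chr19:29251553-29251852, + strand. The other Pde4b promoters examined had no match to this site.
Rasgrp1: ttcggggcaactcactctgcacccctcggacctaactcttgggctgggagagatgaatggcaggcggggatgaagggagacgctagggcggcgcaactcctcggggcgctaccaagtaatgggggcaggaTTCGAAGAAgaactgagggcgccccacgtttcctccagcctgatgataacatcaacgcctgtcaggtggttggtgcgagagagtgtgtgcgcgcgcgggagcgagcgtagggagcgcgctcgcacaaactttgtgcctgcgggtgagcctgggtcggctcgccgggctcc
Pde4b: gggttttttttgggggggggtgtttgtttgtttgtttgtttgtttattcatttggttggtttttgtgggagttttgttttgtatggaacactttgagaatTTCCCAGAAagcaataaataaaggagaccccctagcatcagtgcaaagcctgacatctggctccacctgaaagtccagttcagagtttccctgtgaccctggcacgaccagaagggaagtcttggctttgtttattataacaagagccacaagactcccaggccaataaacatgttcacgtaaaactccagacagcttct
Serpina3g: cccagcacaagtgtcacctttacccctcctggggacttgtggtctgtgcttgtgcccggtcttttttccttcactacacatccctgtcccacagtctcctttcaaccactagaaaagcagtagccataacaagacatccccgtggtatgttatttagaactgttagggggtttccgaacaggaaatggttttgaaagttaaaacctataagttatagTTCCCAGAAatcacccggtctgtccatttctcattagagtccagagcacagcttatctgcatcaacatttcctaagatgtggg
Jak2: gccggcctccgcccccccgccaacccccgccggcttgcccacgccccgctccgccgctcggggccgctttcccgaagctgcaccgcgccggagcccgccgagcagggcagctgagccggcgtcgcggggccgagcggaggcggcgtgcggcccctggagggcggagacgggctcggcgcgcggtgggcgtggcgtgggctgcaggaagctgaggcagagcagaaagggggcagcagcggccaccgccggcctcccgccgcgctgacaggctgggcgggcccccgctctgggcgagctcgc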

How the data were processed

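RNA of macrophages from miR-155 KO mice, in 3 conditions of 2 biological replicates each, was hybridised to 6 Affymetrix mouse arrays. The authors ran RMA and deposited the normalized linear intensity of every probe set, in 2 tables that lie within 5e-06 of each other. Which version of RMA they ran is not given here. Condition means, folds and p-values per comparison in the authors' table were not used. Intensities were put on the log2 scale and 64 control probe sets were left out, leaving 45037, of which 38544 carry 1 symbol, 859 several and 5634 none. Symbols are those of the authors' annotation. Of the 138 member genes, the RefSeq table of GRCm38.p6 lists 125 as current and 8 as a synonym, and 5 are in neither form. All arrays were fitted in one model with limma 3.58.1 under R 4.3.3 (3 residual and 5.49 prior degrees of freedom), with two-sided p-values and Benjamini-Hochberg adjustment across the 45037 probe sets. The fit was tested on simulated data. The small number of arrays limits the precision.

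Members and lists were chosen with earlier results of these data known. Named genes are those with 1 symbol, 4 within-mouse changes of one sign and a level above the array median on every array of a condition: the 12 with the largest smaller change per direction, up to 4 of each list, and Jak2. Outside this rule, and chosen after their values were seen, are Il6, Vcam1 and Cenpe (dim), Folr2 (not of one sign), and the members the text introduces as such or gives for their threshold, likeness or probe sets. Same-numbered arrays were taken to share a mouse from the sample titles alone, and no source states it. Their deviations from the condition means correlated by -0.16 (KO M1 and KO M0), 0.21 (KO M2 and KO M0) and -0.21 (KO M1 and KO M2) over probe sets, so the data do not bear the pairing out for KO M1. The study's methods are unpaired, so mouse as a block was an alternative. The others were trend and robust variances, the methods' t-test, quantile normalization, median centring, the series matrix, a filter on dim probe sets, a threshold of 1.5, the rule in every within-mouse change, and each array left out. Results for a few genes are not reported here.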

Additional observations from a re-analysis of the deposited data

Results flagged for a closer look

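The control probe sets for RNA ends, which no comparison above uses, read higher at the 3′ end relative to the 5′ end on all 4 stimulated arrays than on both KO M0 arrays. For Gapdh the log2 ratio was at least 0.089 on stimulated arrays, against -0.077 and -0.074 in KO M0. For Actb it was at least 0.187 on stimulated arrays, against 0.15 and 0.164 in KO M0. Its part in the shared changes was not tested.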

How the results depend on the processing

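The counts of 74 higher and 123 lower members came to 78 and 117 by ratios of mean linear intensities, 76 and 121 after quantile normalization, 80 and 102 after median centring, 74 and 123 from the series matrix, and 72 and 112 among probe sets above the array median. At a threshold of 1.5 they were 24 and 25, and with all 4 within-mouse changes at least 1 in size 39 and 65. With each array left out they ranged from 69 to 94 higher and from 104 to 155 lower, and 59 to 67 of the 74 and 93 to 112 of the 123 members were kept. Of the calls between the stimuli, the 11 higher in KO M1 ranged from 8 to 19 and the 41 lower from 26 to 45 with each array left out, and the 156 members called in both conditions against KO M0 from 96 to 169. With mouse as a replicate block these counts were 16, 38 and 161, and among named genes the block ended the call of F10 and added Slc40a1, Maf and Pcp4l1 and changed no other call. With the KO M1 mouse numbers crossed, a pairing added after seeing the data, they were 17, 47 and 177. By the methods' t-test on linear intensities all were 0, against 4, 24 and 106 at an unadjusted p under 0.05. In the difference of KO M1 over KO M2, trend and robust variances ended the calls of Arg2, Serpinb2 and Socs1, quantile normalization those of F10 and Gas6, and quantile normalization and centring each added Pcp4l1. That of Serpina3g ranged from -2.08 to 1.31 with each array left out, its sign turning without KO M1 replicate 2. No direction of a named gene's change against KO M0 was reversed under these alternatives. For each array left out this was fixed beforehand, since the stimulated arrays of every named gene lay on one side of both KO M0 arrays. Nothing is read from it. The number of arrays per condition, a common KO M0 pair and many members near the threshold limit the list, and the values were measured in KO cells alone.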
